A study of Mus musculus with 6 samples.

Results

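The replication-dependent histone genes encode the bulk of the histone proteins around which new DNA is wrapped. They were taken as every gene whose name in the deposited table follows the scheme for these genes, H1f1 to H1f6, H2ac, H2bc, H3c or H4c with a number. The naming rule found 65 of 55995 features: 6 genes of class H1, 18 of H2A, 17 of H2B, 12 of H3 and 12 of H4. The rule itself uses names only, but the set was chosen by measured values, the TPM of these same 6 libraries, so the difference between the groups is given as a description and supports nothing. The RNA came from the gastrocnemius, a large muscle at the back of the lower leg. All mice were NOD/SCID/IL2Rγ-null (NSG), an immunodeficient strain without mature lymphocytes, and all carried a subcutaneous tumour on the left flank, grown from wild-type cells of the human breast cancer line MDA-MB-231. In the radiotherapy group (3 libraries) the tumour was given a single local dose of 10 Gy (6 MV X-rays, 6 Gy/min) at a volume of about 800 mm3, and after 3 days the muscle contralateral to it was sampled. The control group (3 libraries) carried the same tumours without irradiation, with no tumour volume or day of sampling of its own in the labels. The labels give no age, and they do not say that libraries came from separate mice, so a p-value here reflects the spread among these libraries alone, part of which may be technical.

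Histones come in classes that assemble into nucleosomes, with H2A, H2B, H3 and H4 forming the core and H1 binding the linker DNA. Replication-dependent histone genes lie in clusters, mostly have no introns, and are switched on when cells copy their DNA. Their messenger RNAs usually end not in a poly(A) tail but in a short stem-loop bound by the protein Slbp, although some, such as H1f2 and H2bc4, are known to be made with a poly(A) tail in differentiated cells. Replication-independent variants such as H3.3, from H3f3a and H3f3b, replace them in cells that no longer divide, such as muscle fibres. A TruSeq kit was used on total RNA, and the sources used here do not state whether poly(A) RNA was selected. Where it was used, mostly messages with a tail would be counted, and this was not tested.

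The stem-loop is shown because it sets these messages apart from others. The match is to the histone stem-loop consensus on the transcript strand, in the GENCODE M21 transcripts of GRCm38 with the same Ensembl identifiers as the table. It was found in 43 of the 65 members and in 0.119% of all 55450 genes. In the following stretches the 16 bases of the stem-loop are in capitals and 5 bases on each side in lower case, written 5′ to 3′.
H4c8: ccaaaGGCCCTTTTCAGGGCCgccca
H4c9: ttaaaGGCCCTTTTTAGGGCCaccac
H2ac18: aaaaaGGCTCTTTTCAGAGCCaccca
H2bc12: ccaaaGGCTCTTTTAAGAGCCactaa
H3c15: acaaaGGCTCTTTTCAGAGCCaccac
H1f2: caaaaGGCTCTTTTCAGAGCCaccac
The H4 genes differed from the other classes in the stem. All 11 H4 stem-loops start with GGCC or GGTC, and all 32 stem-loops of the other classes start with GGCT. Of 8 distinct stem-loops, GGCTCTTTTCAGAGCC was the most frequent, in 24 members, none of them an H4 gene. A member without a match has no such letters in its annotated transcript, which in some cases ends with the coding part, as for H2bc13 and H3c11 (381 and 411 bases).

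Some annotated transcripts end just after the stem-loop and others run far beyond it. Of the 43 members with a stem-loop, 23 have under 100 bases after it and 20 have 100 or more. The hexamer AATAAA, the usual poly(A) signal, was found after the stem-loop in 11 of those 20 and in 0 of the 23. It was counted anywhere in stretches of 108 to 4884 bases in the 20 and of 3 to 74 bases in the 23. A longer stretch has more room for the hexamer, and no rate for such lengths was counted. The contrast therefore cannot show that the longer transcripts carry a poly(A) signal. Abundant members were found in both kinds. H2ac19, H2ac18 and H4c8 have 35, 35 and 46 bases after the stem-loop, whereas H4c9 has 330, H1f2 has 840 and H2bc6 has 1861. These are annotated ends, and the ends used in the muscle were not measured.

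**Figure D1:**
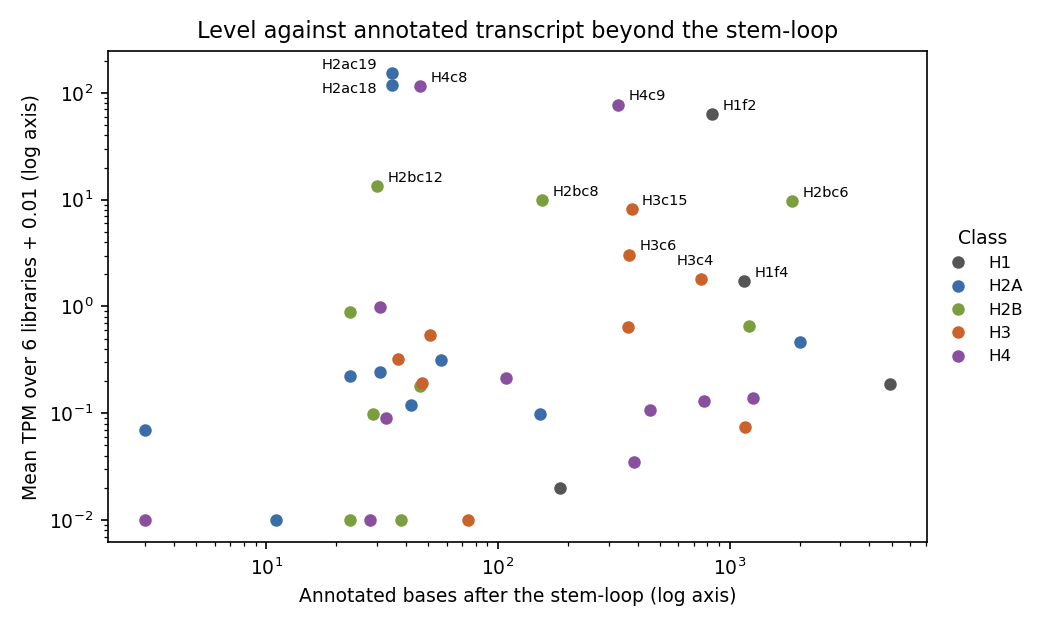
Mean TPM over the 6 libraries plus 0.01 (log axis) against the annotated bases after the stem-loop (log axis), 1 point for each of the 43 members with a stem-loop, coloured by class and named where the mean is at least 1 TPM. Abundant genes lie on both sides, with H2ac19 and H4c8 at 35 and 46 bases and H1f2 at 840 bases.

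Promoters are shown for 4 genes whose levels the results turn on, as the 250 bases before the RefSeq start. Capitals mark 3 motifs searched on both strands: CCAAT, bound by the factor NF-Y, TATAAA, the TATA box, and ATGCAAAT, the octamer known from H2B promoters. A motif on the opposite strand shows as its reverse complement, such as ATTGG. Their letters do not overlap each other in these stretches.
H4c8, GRCm38.p6 chr13:23530794-23531043 (+ strand): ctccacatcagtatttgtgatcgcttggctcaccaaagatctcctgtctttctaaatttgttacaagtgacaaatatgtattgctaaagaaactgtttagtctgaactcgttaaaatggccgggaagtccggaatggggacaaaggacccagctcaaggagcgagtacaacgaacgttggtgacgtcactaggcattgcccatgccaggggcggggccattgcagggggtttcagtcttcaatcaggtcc
H4c9, GRCm38.p6 chr13:22041363-22041612 (- strand): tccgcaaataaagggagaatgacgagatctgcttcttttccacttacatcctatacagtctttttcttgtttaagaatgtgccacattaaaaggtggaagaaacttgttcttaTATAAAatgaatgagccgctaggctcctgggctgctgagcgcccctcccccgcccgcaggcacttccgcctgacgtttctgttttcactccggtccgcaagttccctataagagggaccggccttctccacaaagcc
H2ac18, GRCm38.p6 chr3:96245247-96245496 (+ strand): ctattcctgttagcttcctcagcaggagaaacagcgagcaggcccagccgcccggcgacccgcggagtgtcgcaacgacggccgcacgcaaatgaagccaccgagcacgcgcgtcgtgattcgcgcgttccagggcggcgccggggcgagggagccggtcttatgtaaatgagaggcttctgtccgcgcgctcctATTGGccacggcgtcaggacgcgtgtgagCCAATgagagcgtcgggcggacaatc
H1f2, GRCm38.p6 chr13:23738557-23738806 (+ strand): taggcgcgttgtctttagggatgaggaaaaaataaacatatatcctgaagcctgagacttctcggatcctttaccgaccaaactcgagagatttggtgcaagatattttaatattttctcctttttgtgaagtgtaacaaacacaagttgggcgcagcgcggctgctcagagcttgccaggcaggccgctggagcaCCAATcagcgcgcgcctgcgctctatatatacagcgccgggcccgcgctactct
RefSeq promoters of GRCm38.p6 were found by symbol for 58 members. CCAAT was in 17 of 17 H2A, 14 of 14 H2B, 6 of 6 H1, 8 of 10 H3 and 3 of 11 H4 members with a promoter, and in 33.8% of all 32851 promoters of the same length. ATGCAAAT was in 6 H2A and 7 H2B members and in 0 members of the other classes, beside 1.6% of all promoters. TATAAA was in 28 of the 58, beside 12.4% of all. H4c8 has none of the 3 motifs in this window, and H4c9 has 1, a TATAAA. A match is a string of letters and not a measured binding site. A member counted if any of its starts had the motif, whereas the shares over all promoters are per promoter. Some H2A and H2B genes lie head to head, such as H2ac11 and H2bc11, so close that their windows can share bases. As both strands were searched, 1 site can then count for both classes, so these counts are not independent. In the GENCODE M21 annotation of GRCm38, 55 members lie on chromosome 13 and 10 on chromosome 3. Some genes, such as H2bc4 and H2bc6, span far more bases there than their longest annotated transcript.

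Levels are in TPM, a length-scaled share of the library's transcripts as computed by the authors. Without read counts the depth is unknown, and 3 libraries per group set the precision. Radiotherapy replicate 3 stood apart: its log2 levels correlated across genes at 0.850 and 0.851 with the other radiotherapy libraries and at 0.889 to 0.903 with the controls, and genes are not independent replicates. Fibre markers such as Acta1 and Ckm identified the tissue, with a summed TPM of the 8 fibre markers of 70434 to 76008 in control, 93822 and 95432 in radiotherapy replicates 1 and 2 and 61779 in replicate 3. Over the 11938 features that averaged 1 TPM or more, the median log2(TPM + 1) difference, radiotherapy minus control, was -0.36, and 78.5% lay below 0. With median-of-ratios scaling that median was -0.02, so differences are also given relative to -0.36.

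Most histone genes were near 0 and a few made up the total. Of the 65 members, 16 had a mean of at least 1 TPM, 37 were lower but above 0 in at least 1 library, and 12 were listed at 0 in all 6, beside 52.9% of all features. The 6 most abundant, H2ac19, H2ac18, H4c8, H2bc4, H4c9 and H1f2, held 86.7% of the summed histone TPM in control against 88.3% in radiotherapy muscle. Levels were unequal between classes: the summed TPM in control was 343 ± 105 for H2A, 314 ± 42.8 for H4, 194 ± 56.5 for H2B, 76.3 ± 7.75 for H1 and 28.4 ± 1.96 for H3 (SD, n = 3). Many copies are so alike that reads cannot be assigned with certainty. In 35 members more than 50% of the annotated stretches of 50 bases also occur in another gene, and this share is 100% for H2ac18 and H2ac19. Of the H2ac19 stretches 100% occur in H2ac18, and of the H2ac18 stretches 89.2% occur in H2ac19. H2ac18 shares most with Gm20633, a gene outside the set. The levels of H2ac18 and H2ac19, the split between them and the H2A sum are therefore uncertain. The sources used here do not state how the authors treated such reads.

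Every histone class had a lower mean in the radiotherapy muscles, and in H2B, H3 and H4 all 3 radiotherapy libraries lay below every control library. All members together summed to 928, 1164 and 775 TPM in control replicates 1, 2 and 3 and to 395, 386 and 541 TPM in radiotherapy replicates 1, 2 and 3, a log2 ratio of the group means of -1.12. Without radiotherapy replicate 3 this ratio was -1.29, and with median-of-ratios scaling -0.72. In a bulk sample, fewer cells of a type and less RNA per cell cannot be told apart. Of 8 marker lists of cell types, 0 had summed levels that separated the groups. For fibre, neutrophil and endothelial markers the overlap came through radiotherapy replicate 3. Radiotherapy replicates 1 and 2 lay above every control for fibre markers (93822 and 95432 against 70434 to 76008 TPM). They lay below every control for neutrophil markers (10.93 and 17.97 against 73.1 to 182 TPM). The same held for endothelial markers (60.7 and 60.9 against 64.1 to 74.2 TPM). The 5 markers of satellite cells, muscle stem cells, summed to 1.53 to 1.95 TPM in control against 0.95 to 2.03 TPM after radiotherapy.

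**Figure D2:**
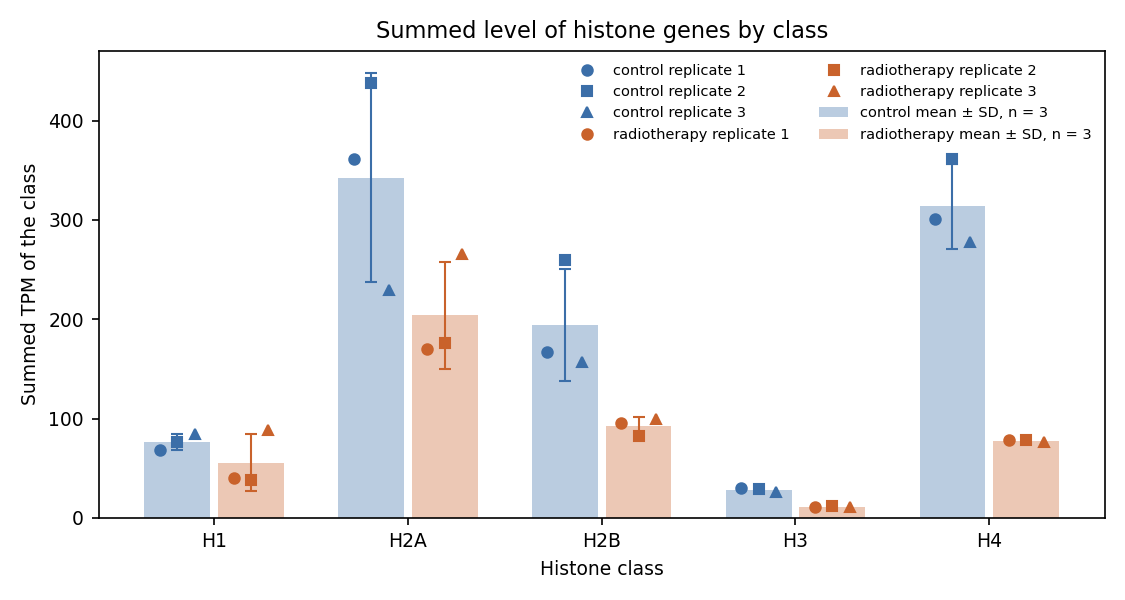
Summed TPM of the members of each histone class (bars, mean of 3 libraries, error bars SD, points single libraries). The H4 sum was 278 to 361 TPM in control against 76.7 to 78.3 TPM in radiotherapy libraries, while H1 and H2A overlap through radiotherapy replicate 3.

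The 16 members with a mean of at least 1 TPM were tested in a limma fit over all 11938 features. None passed an adjusted p of 0.05 in either direction (0 of 16), beside 0.0168% of all features lower and 0.0419% higher. At an unadjusted p under 0.05, 12 were lower and 0 higher, beside 13.3% and 1.18% of all features. In all, 13 of the 16 were lower in every radiotherapy library than in every control library, beside 19.3% of all tested features, and 0 were higher, beside 1.73%. With median-of-ratios scaling 8 of the 16 were separated in that way, beside 9.95% of all. A mean of at least 1 TPM can be reached through the controls alone. This holds for H1f4, H3c4 and H2bc21, with radiotherapy means of 0.52, 0.68 and 0.90 TPM. These counts therefore describe the 16 genes and support nothing. All 16 differences lay below 0, with a median of -1.12 and a range from -2.07 to -0.52. Without radiotherapy replicate 3, 10 of the 16 passed as lower, beside 27.6% of all features.

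**Figure D3:**
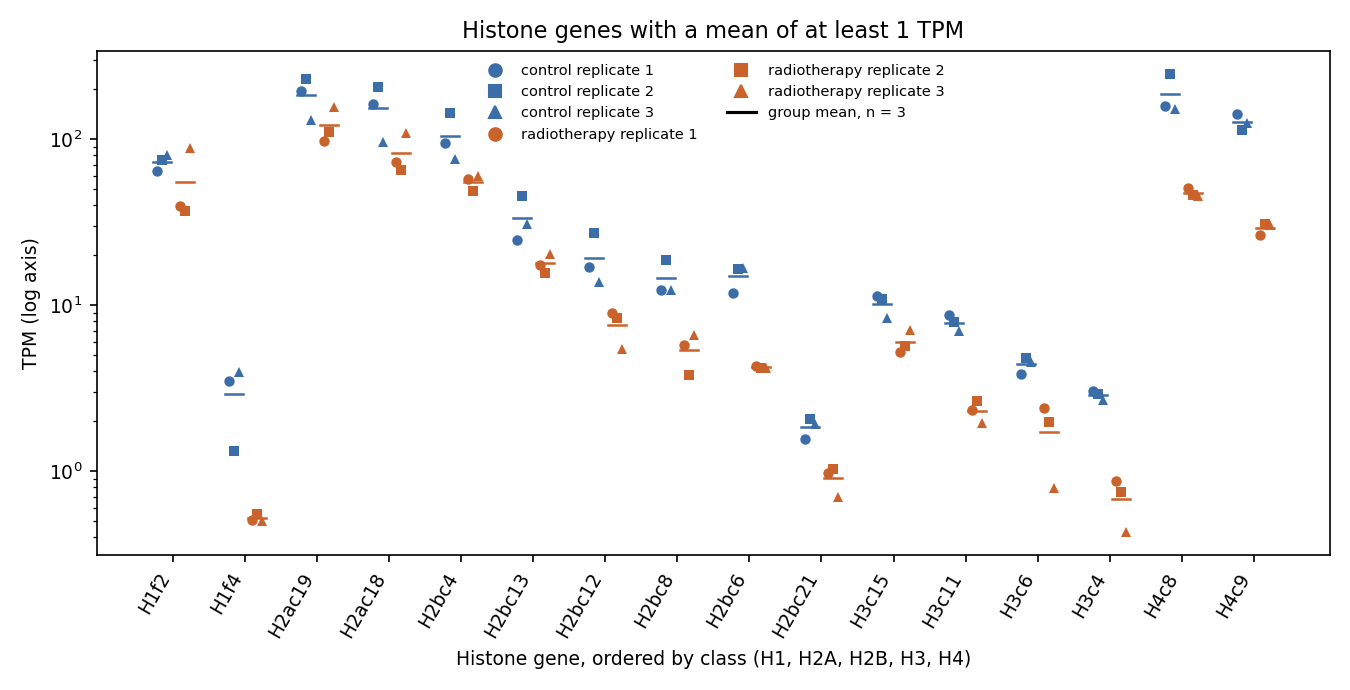
TPM (log axis) of the 16 histone genes with a mean of at least 1 TPM, 1 point per library, with lines for the means of 3 libraries. In H4c8 and H4c9 the radiotherapy libraries lie at 26.5 to 50.6 TPM, below the control libraries at 113 to 247 TPM, while H1f2, H2ac18 and H2ac19 overlap.

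The H4 genes, which encode the most conserved of the core histones, had the largest log2 ratio of summed TPM of the 5 classes, -2.01. H4c8 was at 159, 247 and 151 TPM in control replicates 1, 2 and 3 against 50.6, 45.9 and 45.1 TPM in radiotherapy replicates 1, 2 and 3, the order kept below. H4c9 was at 141, 113 and 125 TPM against 26.5, 30.7 and 30.3 TPM. In both genes the groups lie far apart and the 3 radiotherapy libraries lie close together. The log2 difference was -1.92 (SE 0.29) for H4c8 and -2.07 (SE 0.25) for H4c9, or -1.56 and -1.71 relative to the median of all features. With median-of-ratios scaling the differences were -1.49 and -1.65 and both genes remained separated. The order of single genes depends on the pseudocount: at 0.1 in place of 1, H1f4 was at -2.15, H4c9 at -2.11, H3c4 at -1.98 and H4c8 at -1.94. These 2 genes held 99.4% of the H4 TPM in control against 98.2% in radiotherapy muscle. Of their 50-base stretches, 45.8% in H4c8 and 28.9% in H4c9 also occur in another gene, so part of each level is uncertain. The next H4 gene, H4c18, was at 1.23, 0.37 and 2.16 TPM in control against 0.53, 0.98 and 0.65 TPM in radiotherapy muscle, with overlapping groups. H4c2, H4c12 and H4c17 were listed at 0 throughout.

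The H3 genes, which encode the canonical H3 proteins, were low, and their summed TPM was 29.8, 29.2 and 26.2 in control and 11.2, 11.9 and 10.8 in radiotherapy muscle. All 4 tested H3 genes were separated. H3c11 was at 8.74, 7.87 and 6.93 TPM against 2.34, 2.65 and 1.96 TPM, a log2 difference of -1.42 (SE 0.23). H3c4 was at 3.05, 2.93 and 2.69 TPM against 0.87, 0.75 and 0.43 TPM, a difference of -1.22 (SE 0.25). Both keep wide gaps between tight groups, but H3c4 reached a mean of 1 TPM only through the controls. H3c15 was at 11.3, 10.9 and 8.34 TPM against 5.23, 5.70 and 7.06 TPM, with radiotherapy replicate 3 closest to the controls. H3c6 was at 3.84, 4.78 and 4.55 TPM against 2.40, 1.97 and 0.79 TPM, with replicate 3 lowest. After median-of-ratios scaling the groups overlapped for H3c6 and H3c15, and the H3c15 difference went from -0.67 to -0.29. H3c11 shares 87.6% of its 50-base stretches with other genes, mostly H3c10, which was listed at 0 in 5 of the 6 libraries, so its level is uncertain. The share is 73.4% for H3c6 and 63.5% for H3c15.

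In H2B, 6 genes were tested and all were separated. H2bc4, which makes a tailed message in differentiated cells, was the most abundant, at 93.9, 143 and 76.2 TPM against 57.4, 48.4 and 59.9 TPM, a log2 difference of -0.86 (SE 0.32). H2bc6 was at 11.8, 16.6 and 16.7 TPM against 4.29, 4.19 and 4.18 TPM, a difference of -1.60 (SE 0.25). The gap is narrow for H2bc4 and wide for H2bc6, whose radiotherapy libraries nearly coincide. H2bc8 was at 12.3, 18.8 and 12.4 TPM against 5.76, 3.79 and 6.63 TPM. H2bc12 was at 16.9, 27.1 and 13.8 TPM against 8.97, 8.37 and 5.40 TPM. Control replicate 2 is the highest library for both. H2bc13 was at 24.7, 45.4 and 30.7 TPM against 17.3, 15.7 and 20.4 TPM, and H2bc21, another gene known for tailed messages, at 1.57, 2.05 and 1.93 TPM against 0.98, 1.03 and 0.70 TPM. After median-of-ratios scaling H2bc6, H2bc8 and H2bc12 stayed separated, and H2bc4, H2bc13 and H2bc21 overlapped, their differences going from -0.86, -0.84 and -0.58 to -0.44, -0.43 and -0.33. H2bc12 and H2bc13 share 74.2% and 82.8% of their 50-base stretches with other genes.

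The H2A genes gave the highest sum and the least separated groups among the core histones. H2ac19 was at 195, 231 and 130 TPM in control against 97.4, 110 and 156 TPM in radiotherapy muscle, and H2ac18 at 162, 205 and 96.4 TPM against 72.3, 65.2 and 108 TPM. In both, radiotherapy replicates 1 and 2 lay below every control and replicate 3 lay above control replicate 3. The log2 differences were -0.60 (SE 0.33) and -0.87 (SE 0.37), or -0.24 and -0.51 relative to the median of all features, and -0.17 and -0.45 with median-of-ratios scaling. Together they held 99.0% of the H2A TPM in control. The H2A sum was 361, 438 and 229 TPM in control against 170, 176 and 266 TPM in radiotherapy muscle, so the groups overlapped by replicate 3. The log2 ratio of the H2A sum was -0.75, and -0.36 with median-of-ratios scaling. H2ac6, which like H1f2, H2bc4 and H2bc21 is known for tailed messages and lay under the limit for testing, was at 0.93, 0.73 and 0.71 TPM against 0.12, 0.09 and 0.15 TPM, and H2ac20 at 0.57, 0.39 and 0.60 TPM against 0, 0.14 and 0.15 TPM. Of the 4 members known for tailed messages 3 were tested and 0 passed with limma. At an unadjusted p under 0.05, 1 was lower, beside 13.3% of all features. Of the 3, H2bc4 and H2bc21 were separated as lower, beside 19.3% of all tested features, and H2bc21 reached 1 TPM only through the controls. H2ac6 was separated too, beside 4.49% of features above 0 with a mean under 1 TPM. The median log2 difference of the 3 tested genes, which leaves out H2ac6, was -0.58, beside -0.36 over all features.

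The linker histone genes parted from each other. H1f2, the main H1 gene here, was at 64.6, 74.4 and 79.7 TPM against 39.5, 37.0 and 87.7 TPM, a log2 difference of -0.52 (SE 0.38). Replicates 1 and 2 lay below every control and replicate 3 above every control. Without replicate 3 the difference was -0.91, and with median-of-ratios scaling -0.09. H1f4 was at 3.48, 1.33 and 3.95 TPM against 0.51, 0.55 and 0.50 TPM, a difference of -1.29 (SE 0.35), and there replicate 3 lay with its group. This gene reached a mean of 1 TPM only through the controls, so its contrast with H1f2 is description only and supports nothing. H1f4 shares 32.0% of its 50-base stretches with other genes, mostly H2bc6. The summed H1 TPM had a log2 ratio of -0.46 with all libraries, of -0.97 without radiotherapy replicate 3, and of -0.13 with median-of-ratios scaling.

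Among the 37 members above 0 with a mean under 1 TPM, 31 had a lower and 6 a higher mean in radiotherapy muscle, a split not counted over all features. In 10 of them every radiotherapy library was below every control library, beside 4.49% of the 14453 features in that range, and in 0 the reverse, beside 1.9%. They were H1f3, H2ac6, H2ac10, H2ac20, H2bc9, H2bc18, H2bc23, H2bc24, H3c2 and H3c8. H2bc18, whose 50-base stretches are shared to 100% with other genes, was at 1.57, 0.78 and 0.98 TPM in control against 0, 0 and 0.11 TPM in radiotherapy muscle. H2bc23, whose 50-base stretches are shared to 97.3%, was at 1.30, 0.69 and 1.07 TPM against 0.16, 0.11 and 0.34 TPM. H3c8 was at 0.59, 0.13 and 0.38 TPM in control and was listed at 0 in all 3 radiotherapy libraries. That last pattern, 0 in all radiotherapy libraries with a value above 0 in a control, was found in 12 members, beside 16.8% of the features in that range. The other 11 were H1f5, H1f6, H2ac7, H2ac8, H2ac10, H2ac11, H2ac13, H2ac24, H2bc7, H3c10 and H3c13. The reverse was found in 4, H2ac12, H2ac14, H2ac15 and H4c6, beside 15.9%. Of the testis-type genes, H2ac1 and H2bc1 were listed at 0 in every library and H1f6 was above 0 only in control replicate 1, at 0.06 TPM. Also listed at 0 in every library were H2ac4, H2ac21, H2ac22, H2bc3, H2bc15, H2bc22 and H3c3. A value of 0 in a TPM table can be a failed estimate for a gene with near-identical copies.

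In most of the other histone genes, mainly replication-independent variants, radiotherapy replicate 3 lay within or above the controls. Of 19 found, 8 were tested and 0 passed with limma, 0 also at an unadjusted p under 0.05, beside 13.3% of all features lower. H3f3a, the main H3.3 gene, was at 245, 264 and 270 TPM in control against 176, 175 and 259 TPM in radiotherapy muscle, and H3f3b, its partner, at 74.0, 106 and 59.7 TPM against 33.1, 27.2 and 175 TPM. H2aj was at 98.6, 237 and 103 TPM against 58.7, 61.0 and 137 TPM, and H2ax, whose phosphorylated form marks DNA breaks, at 9.60, 17.7 and 7.70 TPM against 4.65, 3.95 and 14.4 TPM. In these 4 genes replicates 1 and 2 lay below every control and replicate 3 did not. H1f0, a linker histone of resting cells, was at 45.4, 59.0 and 41.1 TPM against 22.5, 22.1 and 45.6 TPM. Macroh2a1 was at 46.0, 35.8 and 32.1 TPM against 23.1, 19.7 and 33.2 TPM. Both follow the same arrangement. H2az1, a variant at active promoters, was at 110, 97.5 and 117 TPM against 66.2, 53.5 and 91.9 TPM. H2az2 was at 43.6, 71.1 and 46.9 TPM against 39.4, 37.6 and 37.6 TPM. Only these 2 of the 8 were separated, beside 19.3% of all features.

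Set against the control mean on the log2(TPM + 1) scale, the 16 members had a median of -0.99, -1.10 and -1.15 in radiotherapy replicates 1, 2 and 3. The 8 other histone genes had -0.88, -1.04 and -0.04, and all tested features -0.53, -0.61 and -0.01. In replicates 1 and 2 the medians were close for both kinds of histone gene, whereas in replicate 3 the median lay far from 0 for the members but near 0 for the other 2 sets. Of the 16 members, all were below every control library in radiotherapy replicates 1 and 2, and in 3 of them (H1f2, H2ac18 and H2ac19) replicate 3 was not. That arrangement in replicates 1 and 2 was common: 7020 of the 11938 tested features had it, so it is not particular to histone genes. Among those 7020 features, replicate 3 was not below every control in 67.3%. The difference between members and variants was not tested. The summed member TPM over that of the other histone genes was 1.37, 1.31 and 1.14 in control and 0.929, 0.962 and 0.682 in radiotherapy muscle. The H3 members made up 8.54%, 7.32% and 7.35% of the combined H3 and H3.3 TPM in control against 5.10%, 5.56% and 2.43% in radiotherapy muscle. In both ratios the groups did not overlap, for which no share over all features was counted, and replicate 3 was lowest. Its denominators were the highest of the radiotherapy libraries. The other histone genes summed to 794 TPM in replicate 3, against 426 and 401 TPM in replicates 1 and 2. H3f3a and H3f3b summed to 434 TPM against 209 and 202 TPM. The H3 sum was 10.8 TPM against 11.2 and 11.9 TPM, and the sum of all members, 541 TPM, was highest in replicate 3. Neutrophil markers moved with that library, with a summed TPM of 2935 in replicate 3, 10.93 and 17.97 in the other radiotherapy libraries and 73.1 to 182 in control (9 of 9 markers found, 0 at 0 throughout). The 7 macrophage markers summed to 370 TPM in replicate 3, to 61.5 and 100.1 TPM in the other radiotherapy libraries and to 61.6 to 189 TPM in the controls. The part of these cells in the ratios was not tested.

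**Figure D4:**
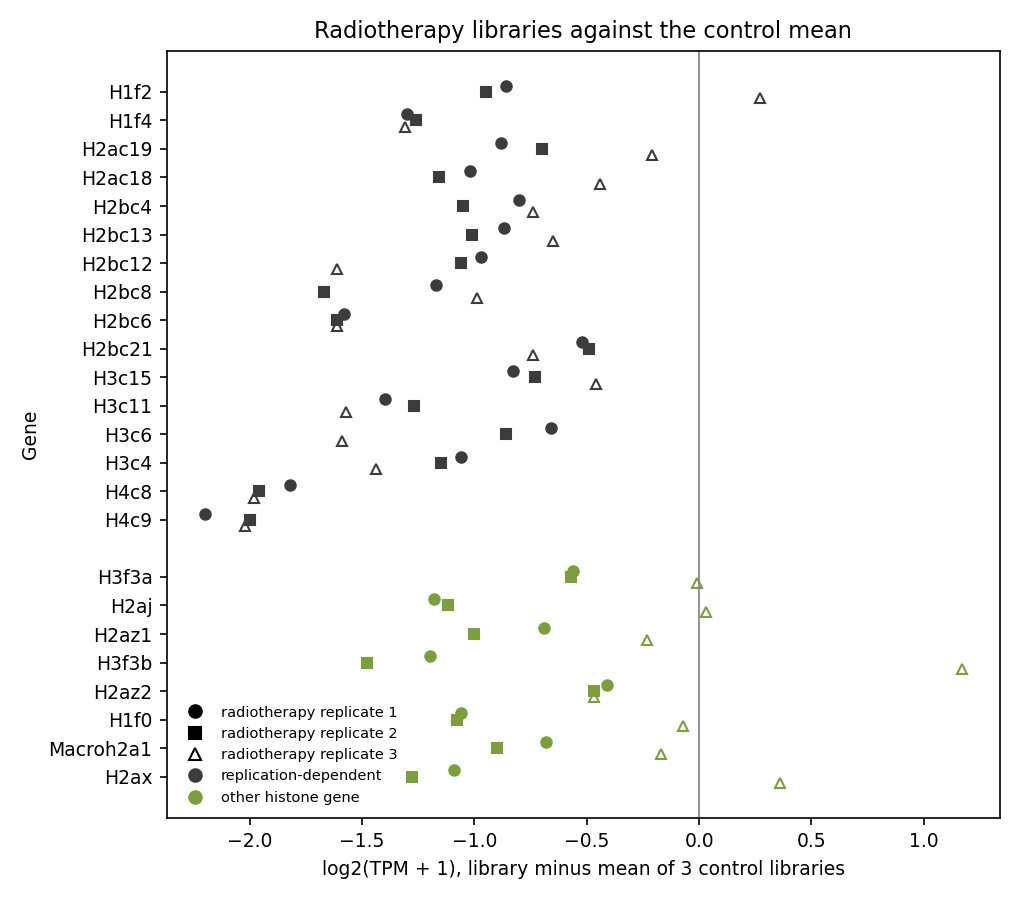
Difference of each radiotherapy library from the mean of the 3 control libraries, in log2(TPM + 1), for the 16 tested members (dark) and the 8 other histone genes (green), 1 point per library. Open triangles, replicate 3, have a median of -1.15 for the members and -0.04 for the other histone genes.

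Genes that transcribe and process histone messages were also measured. Of 20 listed, 12 were tested, 0 passed with limma, and 1, Lsm10, was lower at an unadjusted p under 0.05, beside 13.3% of all features. Slbp, the stem-loop binding protein, named here for its role, was at 6.65, 5.54 and 5.74 TPM in control against 3.36, 2.18 and 5.30 TPM in radiotherapy muscle. It was the only tested member of the list below every control in all 3 radiotherapy libraries, 1 of 12 beside 19.3% of all features. Lsm10, a subunit of the U7 particle that cuts histone messages, was at 22.3, 35.2 and 13.5 TPM against 8.26, 9.70 and 15.0 TPM. Srrt, Nelfe and Ncbp1, which link the cap to this processing, had log2 differences of 0.04, -0.29 and -0.38. Npat, the coactivator of histone genes, was under the limit for testing, at 1.10, 0.49 and 1.04 TPM against 0.32, 0.37 and 0.36 TPM.

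Histone chaperones, which carry histones to and from DNA, gave 16 tested genes, of which 0 passed with limma and 1, Asf1b, was lower at an unadjusted p under 0.05, beside 13.3% of all features. Asf1b, which reached a mean of 1 TPM only through the controls, a chaperone of dividing cells, was at 1.97, 1.26 and 1.85 TPM in control against 0.10, 0 and 0.84 TPM in radiotherapy muscle. Nap1l1, an H2A and H2B chaperone, was at 95.6, 123 and 68.0 TPM against 23.3, 21.6 and 135 TPM, and Rbbp4, an H3 and H4 binding protein, at 34.4, 38.9 and 30.1 TPM against 19.4, 17.8 and 61.5 TPM. Both were highest in radiotherapy replicate 3. Nap1l4 was at 83.4, 71.7 and 75.3 TPM against 53.2, 48.5 and 57.1 TPM, and Rbbp7 at 39.5, 40.3 and 39.9 TPM against 17.5, 18.5 and 39.5 TPM. Rbbp7 was separated by a very small margin, from replicate 3. In all, 3 of the 16 were separated as lower, Nap1l4, Rbbp7 and Asf1b, a share close to the 19.3% of all features.

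Most cell cycle genes were low in every library. Of 30 listed, 12 reached a mean of 1 TPM, 0 passed with limma, and 2, Pcna and Mcm7, were lower at an unadjusted p under 0.05, beside 13.3% of all features. Mki67, a marker of dividing cells, was at 0.03, 0.01 and 0.05 TPM in control against 0.02, 0.06 and 0.14 TPM, and Top2a, a topoisomerase of dividing cells, at 0.08, 0.03 and 0.19 TPM against 0.13, 0.21 and 0.22 TPM. Both overlapped, with higher means in radiotherapy muscle. Of the 18 listed genes under 1 TPM, 14 had a higher and 4 a lower mean there. Among them Cdk1, the kinase of mitotic entry, was at 0.33, 0 and 0.10 TPM against 0.69, 0.81 and 0.65 TPM, and Ccne2, a cyclin of the start of S phase, at 0.80, 0.39 and 0.96 TPM against 0.25, 0.24 and 0.22 TPM. They were the only 2 of the 18 with separated groups, Cdk1 higher and Ccne2 lower. Of the 14453 features above 0 with a mean under 1 TPM, 1.9% were separated as higher and 4.49% as lower. How many features in that range had a higher or a lower mean was not counted. Pcna, the sliding clamp of DNA replication and repair, was at 21.6, 29.1 and 20.2 TPM in control against 5.30, 6.13 and 15.4 TPM in radiotherapy muscle, and Mcm7, a subunit of the replicative helicase, at 8.80, 7.61 and 9.21 TPM against 4.14, 3.84 and 6.34 TPM. Both were separated, 2 of the 12 tested, a share close to the 19.3% of all features. Rrm1, the large subunit of ribonucleotide reductase, was at 10.6, 14.5 and 9.07 TPM against 9.91, 10.3 and 10.5 TPM, and Gins2 at 5.49, 7.71 and 3.40 TPM against 4.2, 4.02 and 4.14 TPM.

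Other RNAs without a poly(A) tail did not share 1 direction. Of 8 tested, 0 passed with limma, and 1 was lower and 2 higher at an unadjusted p under 0.05, beside 13.3% and 1.18% of all features. The 2 higher were Rn7s1 and Rn7s2, copies of the signal recognition particle RNA. Their values were the same in every library, so they stand for 1 measurement. They were at 88.5, 97.7 and 94.0 TPM in control against 149, 130 and 152 TPM in radiotherapy muscle. Rny3, a small Y RNA, was at 88.0, 154 and 176 TPM against 46.7, 21.8 and 68.9 TPM. Rny1, another Y RNA, was at 163, 212 and 152 TPM against 63.2, 106 and 317 TPM. The groups were separated upwards for the first pair, downwards for Rny3 and overlapped for Rny1. The part of RNA selection in the histone levels was not tested.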

How the data were processed

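RNA-seq of the gastrocnemius gave 3 control and 3 radiotherapy libraries. The deposited values are TPM, made by the authors and written to 2 decimals. Per the submitters' processing notes, the tools were HISAT2, StringTie and RSEM and the build mm9; their roles are not stated there. Many identifiers are newer than that build, so coordinates are given only for RefSeq promoters of GRCm38.p6. The members and gene lists were chosen with earlier results of these data known. Features averaging 1 TPM or more over the 6 libraries were tested two-sided on log2(TPM + 1) with limma 3.58.1 in R 4.3.3 (empirical Bayes with a trend, no covariates, Benjamini-Hochberg adjustment over 11938 features, threshold 0.05), which was checked on simulated data. With 3 against 3 libraries no exact test of a single gene was made. Group values are mean ± SD. Named were the tested members, members listed at 0 in every library or in a group, and the tested other histone genes. The up to 4 most abundant genes of each list were also named. Slbp, Npat, Asf1b, Mki67, Top2a, Cdk1, Ccne2, H4c18, Rpph1 and the separated low members were added after values were seen. Symplk, H3f5 and Rn7sk were not matched by name and are not analysed here. Other settings tried were no filter, a minimum average of 5 TPM, pseudocounts of 0.1 and 0.5, median-of-ratios scaling, quantile normalisation, no trend, a replicate block and leaving out each library. Shared sequence was counted in stretches of 50 bases, a length chosen here. Figures were drawn with matplotlib 3.10.9.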

Additional observations from a re-analysis of the deposited data

How the results depend on the processing

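All 16 tested members kept a log2 difference below 0 under each of the alternatives that tested them. They also stayed below the median of all features, except H2bc21, which was at -0.50 beside -0.57 without radiotherapy replicate 3. Lower calls among the members were 0 under the other alternatives and 0 to 10 when single libraries were left out, the 10 without radiotherapy replicate 3, while higher calls stayed at 0 throughout. In that setting 3298 features passed as lower and 236 as higher, against 2 and 5 with all libraries. Leaving out single libraries gave lower calls of 0 to 5 for the 8 tested other histone genes and 0 to 3 for the 12 processing genes. It gave 0 to 9 for the 16 chaperones, 0 to 3 for the 12 cell cycle genes and 0 to 2 for the 8 RNAs without a tail. The highest counts came without radiotherapy replicate 3, where 27.6% of all features passed as lower. The last list also had 0 to 2 higher calls, and in it Rn7s1 and Rn7s2 have the same values. The median log2 difference of the tested members was -1.12 as deposited, -1.36 with a pseudocount of 0.1, -0.47 with no filter on low values, which added 37 members near 0, -0.75 with median-of-ratios scaling and -0.70 with quantile normalisation. Median-of-ratios scaling moved the log2 ratio of summed TPM from -1.12 to -0.72 for all members, from -0.46 to -0.13 for H1, from -0.75 to -0.36 for H2A, from -1.07 to -0.65 for H2B, from -1.33 to -0.87 for H3 and from -2.01 to -1.57 for H4, as it moved the median of all features to -0.02. Leaving out single libraries gave -1.25 to -0.97 for the median of members, -1.29 to -0.95 for all members summed, -0.97 to -0.25 for H1, -0.99 to -0.53 for H2A, -1.20 to -0.81 for H2B, -1.38 to -1.29 for H3 and -2.09 to -1.90 for H4. The cause of these shifts was not tested beyond the settings named. The labels do not say that the replicate numbers pair the libraries. Same-numbered libraries had correlations of deviations from the group means of -0.05, -0.11 and -0.20. Deviations from a mean of 3 libraries are not independent, so these values cannot decide whether libraries were paired. With a replicate block 0 members passed and the median of members was -1.12, while calls over all features went from 7 to 4. The depth is unknown, so no detection limit was set for members listed at 0.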
